A study of Homo sapiens with 12 samples.

Results

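The first week of osteogenic differentiation in parental SaOS-2 cells was followed by setting the 2 arrays of day 7 against the 2 arrays of day 0, which are 4 of the 12 Affymetrix HG-U133 Plus 2.0 arrays of the series. The line was established from a human osteosarcoma, and the parental cells carried no transfected gene. The day 7 cells had been kept for 7 days in osteogenic medium, which held ascorbic acid and beta-glycerophosphate, had a lower serum content and was renewed at intervals, and the day 0 cells had grown only in routine medium with more serum. Medium, serum and time in culture differ together between these groups and cannot be told apart. The other arrays held SaOS-2 at day 14 and the stably transfected clones wt22 and wt36, labelled Sa/CD99, at days 0, 7 and 14, with 1 array per clone and day. Those clones were made from SaOS-2, selected with neomycin and given the same medium. Genes were kept when the signal (2 to the power of the deposited log2 value) was over 100 in at least 4 of the 12 arrays, a floor of 6.64 on the log2 scale. This left 18677 of 54675 probe sets and 9731 of the 19775 genes on the arrays. Just inside the filter, 520 probe sets passed on exactly 4 arrays (median 6.44 over the 12 arrays), and just outside it 489 passed on 3 (median 6.40).

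Osteoblasts arise from mesenchymal precursors under the transcription factors RUNX2 and SP7. They lay down a matrix of type I collagen, which ascorbic acid helps to hydroxylate, and mineralize it with phosphate that the enzyme ALPL releases, for which beta-glycerophosphate serves as a source. Bone morphogenetic proteins (BMPs) drive the lineage through SMAD proteins and switch on the ID genes, while proliferation usually slows as matrix is made.

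Nothing in the labels ties the 2 arrays of a day to different cultures. The p-values therefore rest on the scatter between these arrays alone, and that scatter may be technical. Over the probe sets kept, the day 7 pair correlated with r = 0.997 and the day 0 pair with r = 0.9966, with log2 differences between the 2 arrays that had an SD of 0.12 at day 7 and 0.13 at day 0. Pairs of clone arrays lay further apart (r = 0.9738 to 0.9774, SD 0.34 to 0.36). The 3' minus 5' difference of the control probe sets, a sign of RNA quality, was 0.03 to 0.04 at day 7 and 0.08 to 0.10 at day 0 for GAPDH, and 0.13 to 0.14 at day 7 and 0.11 to 0.22 at day 0 for ACTB. None of 13 haematopoietic and endothelial markers and none of 9 osteoclast markers on the array passed the floor on any of the 4 arrays. Epithelial markers above it were EPCAM, KRT18 and MUC1, 3 of 12. The osteoblast identity of the line was borne out in part. COL1A1, SPARC, ALPL and RUNX2 were well above the floor on every one of the 4 arrays, whereas SPP1 lay below the floor (3.88 and 3.95 at day 7, 3.92 and 4.02 at day 0). BGLAP had no probe set that names it alone.

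Day 7 differed from day 0 in 1522 of 9731 genes (15.6%) by limma, at an adjusted p of at most 0.05 and a change of at least 1.5-fold. Of these, 812 genes were higher (8.34%) and 710 lower (7.3%). The arrays of the days did not overlap for any of the 1522. With thresholds on size and scatter this was nearly fixed in advance, so it adds no support to the calls. In probe sets the count was 3067 (16.4%), 1818 higher and 1249 lower. The median change over all genes was -0.05 on the log2 scale. Changes over 4-fold were found in 23 higher and 22 lower genes. A change of several probe sets of 1 gene could be compared for 642 called genes, of which 56 had a probe set with the opposite sign and 3 had one called the other way. Folds are compressed or uncertain where a day lies under the floor on both arrays, which held for 130 higher genes at day 0 and 93 lower genes at day 7. For such genes named here, the change against the floor is given as a bound ("at least").

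KANK4, an ankyrin repeat protein, gave log2 values of 8.64 and 8.62 at day 7, against 4.92 and 4.71 at day 0 (change 3.82, SE 0.087, adjusted p = 2.46e-07, and at least 3.97-fold against the floor). TRPM8, a cold-sensing cation channel, gave 10.16 and 10.26 at day 7 and 6.62 and 6.61 at day 0 (3.59, SE 0.060, at least 11.9-fold). All 4 of these day 0 values lay under the floor. The peptidase inhibitor PI15 (7.86 and 7.86 at day 7, 4.02 and 4.21 at day 0, at least 2.32-fold), the lipopolysaccharide-binding protein LBP (8.27 and 8.30, against 4.99 and 4.96, at least 3.12-fold) and connexin 26, GJB2 (8.87 and 8.82, against 6.15 and 5.78, at least 4.59-fold), were likewise under the floor at day 0 and above it at day 7. IL1R1, the interleukin-1 receptor, rose by 2.78 (SE 0.063, at least 4.72-fold), PLXDC1 by 2.85 (SE 0.12, at least 2.02-fold) and EVI2A by 2.67 (SE 0.082, at least 2.51-fold). Genes already above the floor at day 0 included OXTR, the oxytocin receptor, at 10.49 and 10.57 on day 7 and 7.82 and 7.78 on day 0 (6.63-fold). They also included the endothelial lipase LIPG (9.56 and 9.64, against 6.80 and 6.95) and GPNMB, a glycoprotein known as osteoactivin (11.24 and 11.28, against 8.69 and 8.74). The 12 genes with the largest increases were also higher at day 14 than at day 0, by 1.32 to 5.41.

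Among the 12 genes with the largest decreases stood 3 of the 4 ID genes, the BMP antagonist NOG and the Wnt antagonist DKK1. MYH3, an embryonic myosin heavy chain, gave 3.47 and 3.61 at day 7 and 8.05 and 8.12 at day 0 (at least 2.71-fold lower). COL18A1, a basement membrane collagen, lay at 6.55 and 6.60 at day 7, against 9.69 and 9.69 at day 0 (at least 8.26-fold lower). CNN1, a smooth muscle calponin, fell to 7.32 and 7.32 at day 7, against 10.21 and 10.18 at day 0 (7.35-fold). The prostaglandin E synthase PTGES fell by 2.61 (SE 0.12, at least 4.19-fold), the bHLH factor ATOH8 fell by 2.45 (SE 0.060, at least 3.27-fold), and the homeobox factor DLX2 changed by -2.50 (SE 0.11, at least 3.28-fold lower), each under the floor at day 7.

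**Figure D1:**
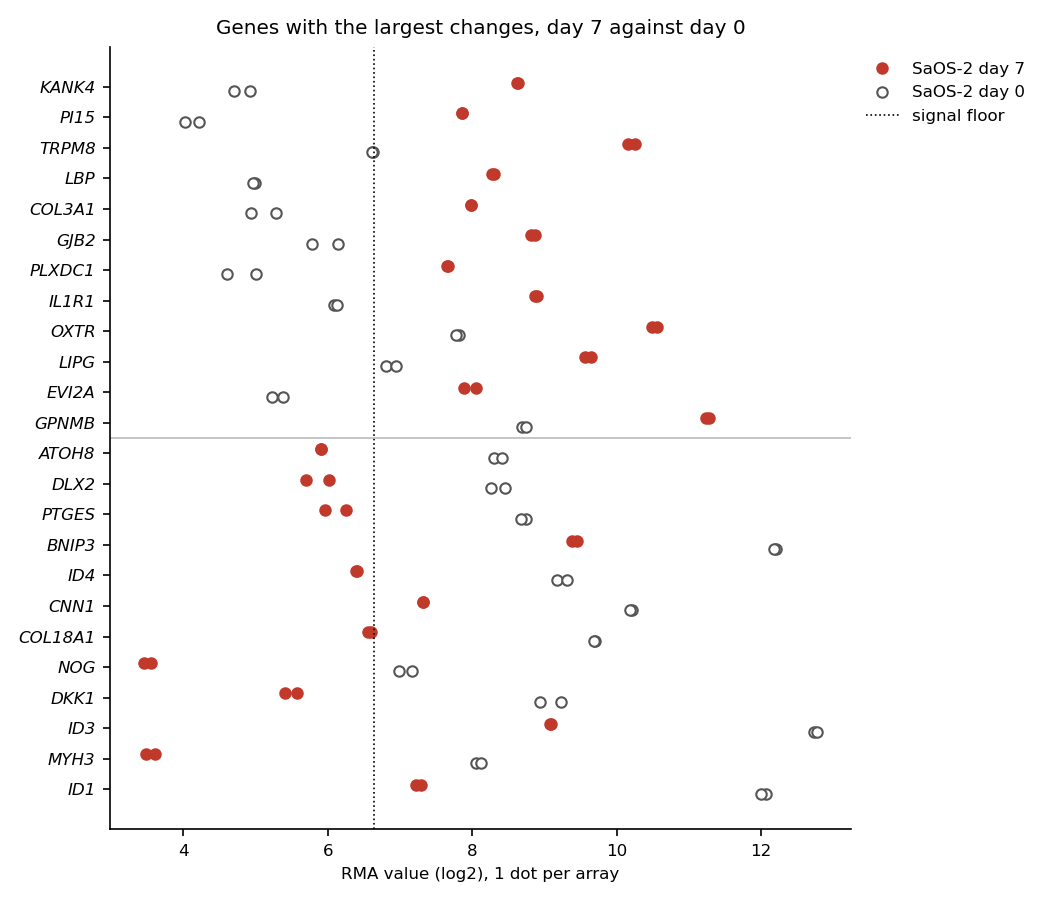
RMA values (log2, horizontal axis) of the 12 genes with the largest increases and the 12 with the largest decreases, 1 dot per array, red for SaOS-2 day 7 and open grey for SaOS-2 day 0, with the floor of 6.64 dotted. Overlap of the days is absent because only called genes without it were chosen. ID1 shows the widest gap, at 7.30 and 7.22 on day 7 and 12.07 and 11.996 on day 0.

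All 4 ID genes fell, with a median of -3.26 on the log2 scale. ID proteins bind bHLH transcription factors and keep them from DNA, and their genes respond directly to BMP signals. ID1 gave 7.30 and 7.22 at day 7, against 12.07 and 11.996 at day 0 (change -4.78, SE 0.065, adjusted p = 6.87e-08, 27.4-fold). ID3 gave 9.09 and 9.08 at day 7, against 12.74 and 12.78 at day 0 (-3.67, SE 0.056, 12.8-fold). ID4 gave 6.40 and 6.39 at day 7, against 9.17 and 9.31 at day 0 (-2.84, at least 6.04-fold against the floor). For ID2 the values were 8.46 and 8.32 at day 7 and 10.08 and 10.17 at day 0 (-1.73, SE 0.072, 3.33-fold). At day 14 they stood at 7.83 and 7.93 (ID1), 9.77 and 9.70 (ID3), 5.66 and 5.83 (ID4) and 8.13 and 8.23 (ID2), all below every day 0 array.

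In the wider list of TGF-beta and BMP signalling, 7 of 28 genes tested fell and 1 rose, with a median of -0.11. These are 25% lower and 3.57% higher, against 7.3% and 8.34% of all genes. Those that fell were mostly inhibitors of the pathway that are themselves induced by it. NOG, which binds and blocks BMPs, gave 3.55 and 3.45 at day 7, against 7.16 and 6.98 at day 0 (-3.57, SE 0.076, at least 1.34-fold against the floor, to which its day 0 level lay close). The pseudoreceptor BAMBI gave 7.14 and 7.24 at day 7 and 9.20 and 9.26 at day 0 (-2.04, SE 0.063). The inhibitory SMAD6 gave 6.77 and 6.60, against 8.50 and 8.35 at day 0 (-1.74), and SMAD7 gave 6.17 and 6.16, against 7.82 and 7.87 (-1.68, at least 2.30-fold). FSTL3, which binds activins, fell by 1.69 (SE 0.064) and the ligand TGFB2 by 1.54 (SE 0.074). The member that rose was SMAD1, a receptor-activated SMAD of the BMP branch, at 10.84 and 10.60 on day 7 and 9.49 and 9.49 on day 0. SMAD1 was named after its values were seen.

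Of 15 osteoblast transcription factors tested, 3 rose (20%) and 5 fell (33.3%), against 8.34% and 7.3% of all genes. SP7, osterix, a master factor of the lineage, gave 7.51 and 7.50 at day 7, against 8.73 and 8.67 at day 0 (-1.19, SE 0.072, adjusted p = 1.11e-05). The homeobox factor DLX3 gave 5.91 and 5.72 at day 7 and 8.13 and 8.16 at day 0 (-2.33, at least 2.83-fold), and MSX2 gave 6.07 and 6.13 at day 7 and 7.73 and 7.90 at day 0 (-1.71, at least 2.25-fold). FOXC2 fell as well (-0.68, SE 0.071, at least 1.38-fold). RUNX3, a relative of RUNX2, rose to 9.70 and 9.59 at day 7, against 8.22 and 8.29 at day 0 (1.39, SE 0.063). LEF1, a Wnt effector, rose by 0.99 (SE 0.057). RUNX2 itself gave 12.28 and 12.29 at day 7 and 11.69 and 11.72 at day 0. Its change of 0.58 (SE 0.057, adjusted p = 0.000101) was 1.496-fold and so stayed under the 1.5-fold threshold, but passed it without the first day 7 array (0.59) or the second day 0 array (0.60), and 2 of its 5 probe sets were called higher. PRRX1 rose by 0.84 (SE 0.10) with all 4 values under the floor, where no fold can be given, and did not pass with the 12 arrays in 1 fit (adjusted p = 0.162).

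Bone matrix genes changed gene by gene. Of 15 non-collagenous matrix genes, 2 rose and 2 fell (13.3% each, median 0.03), near the 8.34% and 7.3% of all genes. IBSP, bone sialoprotein, which nucleates mineral, gave 8.44 and 8.55 at day 7 and 6.70 and 6.84 at day 0 (1.73, SE 0.070, 3.31-fold), and 9.41 and 9.44 at day 14. The proteoglycan VCAN gave 10.14 and 10.11 at day 7, against 8.33 and 8.29 at day 0 (1.82, SE 0.059), with all 5 of its probe sets called. THBS1, thrombospondin, fell by 0.88 (SE 0.098) and TGFBI by 0.79 (SE 0.054). SPARC, osteonectin, gave 11.998 and 12.08 at day 7 and 12.001 and 12.04 at day 0, values that overlapped. In the fit of 12 arrays IBSP and TGFBI did not pass (adjusted p = 0.396 and 0.127).

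Of 14 collagen chains, 3 rose (21.4%) and 4 fell (28.6%), against 8.34% and 7.3% of all genes. COL3A1, a fibrillar collagen, gave 7.99 and 7.99 at day 7, against 4.93 and 5.28 at day 0 (2.88, SE 0.10, at least 2.54-fold), and 10.51 and 10.51 at day 14. COL27A1 rose by 1.03 (SE 0.078) and COL8A2 by 0.98 (SE 0.11, at least 1.36-fold). Next to COL18A1, the type VI chains COL6A2 (12.09 and 12.07 at day 7, 13.18 and 13.01 at day 0) and COL6A1 (12.12 and 12.12, against 13.05 and 12.93) fell. Both missed the threshold in the fit of 12 arrays (adjusted p = 0.177 and 0.105). The type I chains that make up bone collagen did not pass with the probe sets that stand for them. However, 1 of 4 COL1A1 probe sets was called lower and 1 of 2 COL1A2 probe sets higher. The mean over the COL1A1 probe sets changed by -0.31, under 1.5-fold (limma adjusted p = 0.00165). COL1A1 gave 12.89 and 13.001 at day 7 and 12.86 and 13.16 at day 0, which overlapped, with a change of -0.06 (SE 0.11, adjusted p = 0.648) that was 0.09 without the second day 0 array. COL1A2 gave 10.67 and 10.69 at day 7, against 10.45 and 10.37 at day 0 (0.27, SE 0.058), and 11.55 and 11.51 at day 14.

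Among 24 genes for collagen hydroxylation, folding and crosslinking, 4 fell (16.7%) and 1 rose (4.17%), against 7.3% and 8.34% of all genes. The prolyl hydroxylase subunit P4HA1 gave 9.68 and 9.64 at day 7 and 11.44 and 11.53 at day 0 (-1.83, SE 0.068), and the lysyl oxidase LOXL2 gave 10.07 and 10.14, against 11.66 and 11.60 at day 0 (-1.52, SE 0.058). PLOD1 (-0.70) and P4HA2 (-0.66) also fell. PCOLCE, which enhances procollagen cleavage, rose to 13.16 and 13.19 at day 7, against 11.96 and 11.77 at day 0 (1.31, SE 0.073).

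For mineralization and hormone receptors, 3 of 8 genes rose (37.5%, against 8.34% of all genes) and none fell. GHR, the growth hormone receptor, gave 8.66 and 8.55 at day 7 and 7.58 and 7.54 at day 0 (1.05, SE 0.061). ENPP1, which makes pyrophosphate, rose by 0.75 (SE 0.11). The glucocorticoid receptor NR3C1 rose by 0.69 (SE 0.085), but its call was lost when its probe sets were averaged (0.43). ALPL, the alkaline phosphatase, gave 11.86 and 11.81 at day 7, against 11.56 and 11.58 at day 0. This change of 0.27 (SE 0.065, adjusted p = 0.00855) stayed under 1.5-fold, and the values at day 14 were 12.13 and 11.99.

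**Figure D2:**
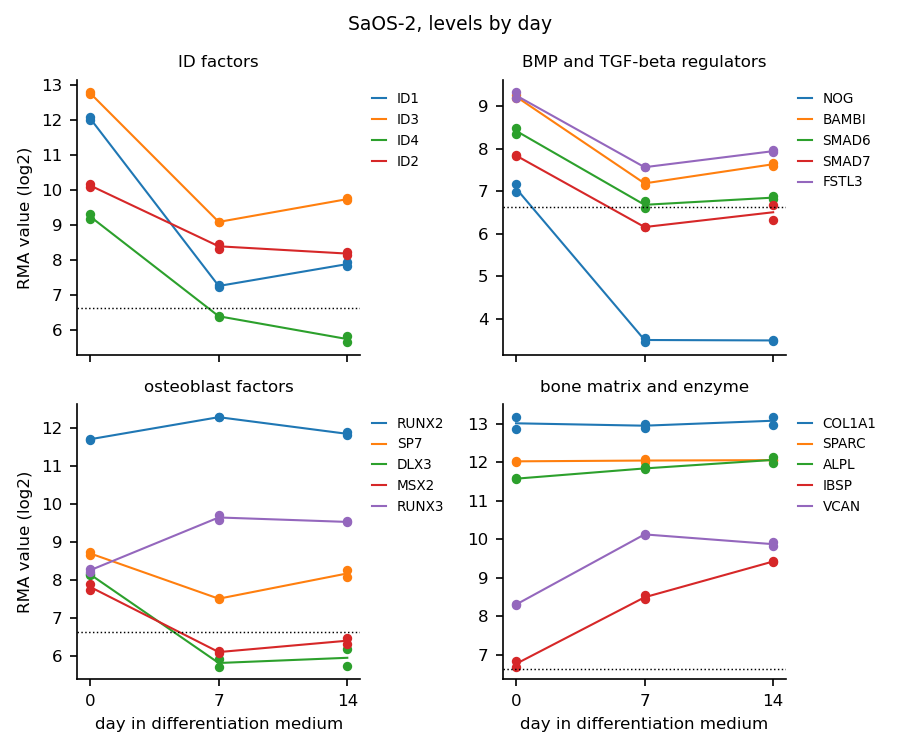
RMA values (log2, vertical axis) of ID factors, BMP and TGF-beta regulators, osteoblast factors, and bone matrix genes and ALPL in SaOS-2 against the day in differentiation medium, with 1 dot per array, lines through the means of 2 arrays and the floor of 6.64 dotted. The ID genes and inhibitors drop between days 0 and 7, with ID1 at 7.30 and 7.22 on day 7, while COL1A1 and SPARC stay near 13 and 12 and IBSP climbs to 9.41 and 9.44 at day 14.

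Proteolysis and adhesion genes moved in both directions. Of 13 metalloproteinases, plasminogen activators and inhibitors, 5 rose (38.5%) and 2 fell (15.4%), against 8.34% and 7.3% of all genes. PLAU, urokinase, gave 9.65 and 9.70 at day 7, against 8.03 and 8.06 at day 0 (1.64, SE 0.056), while its receptor PLAUR gave 8.73 and 8.69, against 10.98 and 11.05 (-2.30, SE 0.057). The gelatinase MMP2 rose by 0.78 (SE 0.063), the membrane-bound MMP14 by 0.75 (SE 0.059) and the protease inhibitor SERPINE2 by 0.72 (SE 0.064). MMP14 missed the threshold in the fit of 12 arrays (adjusted p = 0.126). In integrins and laminins 6 of 19 rose (31.6%) and 1 fell (5.26%). The laminin chain LAMA4 gave 8.43 and 8.50 at day 7, against 6.55 and 6.72 at day 0 (1.83, SE 0.072). ITGB4 rose by 1.17, NID2 by 0.82 and ITGAV by 0.66, and ITGA6 fell by 1.04. Of the marrow stromal surface markers, FAP (at least 1.20-fold against the floor), PDGFRA (1.08) and THY1 (0.65) rose and MCAM (-1.20), CD44 (-0.82) and NT5E (-0.63) fell, 3 and 3 of 12. The THY1 change was 0.57 without the second day 7 array and that of NT5E -0.52 without the second day 0 array, both under the threshold, and with all 12 arrays CD44 and NT5E did not pass (adjusted p = 0.188 and 0.218).

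Of 20 Wnt signalling genes, 7 fell (35%) and 1 rose (5%), against 7.3% and 8.34% of all genes. DKK1, a secreted inhibitor of Wnt receptors, gave 5.57 and 5.40 at day 7 and 8.94 and 9.23 at day 0 (-3.60, SE 0.10, at least 5.43-fold). The ligand WNT10B fell by 0.72 (SE 0.092) and WNT11 rose to 9.18 and 9.14 at day 7, against 8.20 and 8.14 at day 0 (0.99, SE 0.056). DKK3 fell by 0.70. Calls of the receptors FZD2 (-0.69) and ROR1 (-0.72) were lost when probe sets were averaged (-0.38 and -0.36). In the insulin-like growth factor list 6 of 12 fell (50%) and 1 rose (8.33%), with a median of -0.50. The binding proteins IGFBP3 (7.62 and 7.59 at day 7, 8.93 and 8.87 at day 0), IGFBP7 (-1.17), IGFBP6 (-1.06) and IGFBP5 (-0.90) were lower, along with STC2 (-1.01), and the insulin receptor substrate IRS2 was higher (8.04 and 7.97, against 6.96 and 7.02). IGFBP3 and IGFBP7 did not pass in the fit of 12 arrays (adjusted p = 0.0594 and 0.0712). The Notch ligand JAG1 fell by 1.05 and the Notch target HES4 by 0.74 (adjusted p = 0.100 and 0.178 with 12 arrays), in a list of 10 with 2 lower and 2 higher.

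Immediate early genes were higher in 2 of 15 cases (13.3%) and lower in 1 (6.67%), near the 8.34% and 7.3% of all genes, so the values below are those of single genes. EGR1 gave 10.15 and 9.87 at day 7, against 8.32 and 8.40 at day 0 (1.65, SE 0.092), ATF3 gave 8.73 and 8.74, against 7.67 and 7.57 (1.12, SE 0.059), and the AP-1 member FOSL1 fell by 0.96 (SE 0.065). FOS did not pass the filter of the series but lay above the floor at day 7, with 7.45 and 7.24 at day 7 and 4.52 and 4.21 at day 0. It is given as values with no call. CCND1 also failed the filter, at 3.98 and 4.29 on day 7 and 4.39 and 4.75 on day 0.

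Genes of glycolysis and the hypoxia response fell together. Of 35 tested, 23 were lower and none higher, against 7.3% lower among all genes, and the median was -0.76, against -0.05 over all genes. HIF factors, stabilized when oxygen is low, switch on many of these genes. BNIP3, a mitochondrial protein of mitophagy, gave 9.46 and 9.38 at day 7, against 12.21 and 12.18 at day 0 (-2.78, SE 0.057, adjusted p = 1.75e-07, 6.86-fold). The enolase ENO2 gave 6.32 and 6.25 at day 7, against 8.52 and 8.60 at day 0 (-2.27, at least 3.77-fold). EGLN3, an oxygen-sensing hydroxylase, gave 6.13 and 6.19, against 8.32 and 8.26 (-2.13, at least 3.14-fold). The pyruvate dehydrogenase kinase PDK1 gave 7.70 and 7.74, against 9.66 and 9.91 (-2.06, SE 0.085), and PFKFB3, a regulator of phosphofructokinase, gave 7.28 and 7.09, against 8.67 and 8.81 (-1.55, SE 0.088). Other members that fell did so by 0.62 to 1.83. At day 14 BNIP3 (9.22 and 9.19), EGLN3 (6.26 and 6.31) and PDK1 (7.48 and 7.41) remained below every day 0 array. The 29 respiratory chain genes tested held 1 that rose, NDUFA5 (0.66), which lost its call without the first day 0 array (0.50) and with 12 arrays, and none that fell, with a median of -0.15.

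The core letters of the element that HIF factors bind, ACGTG, were searched on both strands of the 250 bases before the RefSeq starts of each gene (GRCh38.p14). They stood before 15 of 21 genes of the list that were lower at day 7 and have a window (71.4%), before 5 of 10 that were not called (50%), and before 2445 of 8156 genes tested (30%). With only the first listed start of each gene, the counts were 10 of 21 (47.6%), 4 of 10 (40%) and 1993 of 8156 (24.4%). Matches are a description of the letters, and a core preceded by C reads CACGTG, which is also an E-box. The 200 bases before a start are shown for the 2 members with the largest decreases in the list, with the core in capitals. Here and for the windows further below, that start is the first listed one whose 200 bases hold a match. A match was thus part of the choice. BNIP3 lies at chr10:131981924-131982123, minus strand, where the core is read on both strands in 1 palindrome, and ENO2 at chr12:6914380-6914579, plus strand.
BNIP3: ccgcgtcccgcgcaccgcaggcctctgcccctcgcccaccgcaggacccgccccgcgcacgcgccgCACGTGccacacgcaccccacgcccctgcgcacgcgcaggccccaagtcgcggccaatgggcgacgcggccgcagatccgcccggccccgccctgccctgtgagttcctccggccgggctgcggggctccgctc
ENO2: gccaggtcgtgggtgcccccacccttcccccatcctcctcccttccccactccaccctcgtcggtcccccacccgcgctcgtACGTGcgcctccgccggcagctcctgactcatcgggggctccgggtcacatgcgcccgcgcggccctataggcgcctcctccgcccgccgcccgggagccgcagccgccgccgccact

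Contractile and YAP or SRF target genes were lower as well, 13 of 21 lower and 3 higher (median -0.87). These are 61.9% lower and 14.3% higher, against 7.3% and 8.34% of all genes. In bulk RNA fewer cells of a kind and less RNA per cell cannot be told apart. TAGLN, transgelin, gave 10.10 and 9.94 at day 7, against 12.42 and 12.27 at day 0 (-2.32, SE 0.079). ACTA2, smooth muscle actin, gave 12.61 and 12.54 at day 7 and 13.64 and 13.61 at day 0 (-1.05, SE 0.057). AJUBA, a junctional LIM protein, fell by 1.40 (SE 0.068). The 3 that rose were matricellular proteins, CCN5 (7.11 and 7.00 at day 7, 5.05 and 5.04 at day 0, at least 1.33-fold), CCN3 (7.49 and 7.50, against 6.09 and 5.92, at least 1.80-fold) and CCN4 (11.41 and 11.41, against 9.96 and 10.00). In the fit of 12 arrays CCN3 and CCN4 did not pass (adjusted p = 0.0630 and 0.0657). The overlapping list of muscle markers held 7 of 9 that fell and 1 that rose. Its members above the floor on any of the 4 arrays were 11 of 24 on the array. These included the skeletal muscle genes MYOD1, MYL1 and TNNC1 besides MYH3, while MYOG, DES and ACTA1 were among those under it. The summed signal of the 24 was 13162 to 13936 at day 7, against 24955 to 26007 at day 0. The cardiac actin ACTC1 fell to 6.15 and 6.25, against 7.46 and 7.36 at day 0 (at least 1.70-fold), whereas MYOCD, a coactivator of SRF, gave 8.57 and 8.53 at day 7 and 7.45 and 7.65 at day 0 (adjusted p = 0.456 with 12 arrays).

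Mitotic genes were lower in 24 of 56 cases and higher in 2, with a median of -0.48. The share lower was 42.9%, against 7.3% among all genes. CDC20, an activator of the anaphase-promoting complex, gave 8.48 and 8.43 at day 7, against 9.46 and 9.48 at day 0 (-1.02, SE 0.054, adjusted p = 6.72e-06). ESPL1, separase, gave 8.35 and 8.34, against 9.35 and 9.29 at day 0 (-0.97, SE 0.055), the kinetochore gene SPC25 gave 7.83 and 7.75, against 8.66 and 8.75 (-0.92), and MYBL2 fell by 0.91. The members that rose were the motor proteins CENPE (7.61 and 7.37 at day 7, 5.83 and 6.21 at day 0, at least 1.80-fold) and KIF18A (7.52 and 7.45, against 6.33 and 6.37, at least 1.79-fold). At day 14 CENPE stood at 5.88 and 6.13 and KIF18A at 5.84 and 5.84. CDK1 gave 10.91 and 11.02 at day 7 and 10.83 and 10.79 at day 0 (0.15, SE 0.088, adjusted p = 0.167), but 1 of its 3 probe sets was called higher. MKI67 gave 9.05 and 8.99 at day 7 and 8.96 and 8.99 at day 0 (0.04, SE 0.056), a sign that turned when its 4 probe sets were averaged (-0.09). In DNA replication and S phase 6 of 47 fell (12.8%) and 4 rose (8.51%), near the 7.3% and 8.34% of all genes (median -0.19). Thymidine kinase TK1 gave 9.63 and 9.63, against 10.71 and 10.61 at day 0 (-1.03), whereas the helicase subunit MCM6 gave 11.75 and 11.82, against 11.06 and 11.08 (0.72, SE 0.056). Of 13 CDK inhibitors and their partners, CDKN1A (9.82 and 9.82, against 9.03 and 9.03) and CDKN1C (7.39 and 7.40, against 6.79 and 6.69) rose. CDKN1A did not pass in the fit of 12 arrays (adjusted p = 0.181).

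The CHR letters TTTGAA, which mark many cell cycle promoters, were found on either strand before 10 of 21 mitotic genes that fell and have a window (47.6%), before 16 of 25 that were not called (64%), and before 984 of 8156 genes tested (12.1%). With the first start alone they were 9 of 21 (42.9%), 16 of 25 (64%) and 678 of 8156 (8.31%). The windows of the 2 members with the largest decreases are given, CDC20 at chr1:43358781-43358980, plus strand and ESPL1 at chr12:53268099-53268298, plus strand, with the letters in capitals on whichever strand they are read.
CDC20: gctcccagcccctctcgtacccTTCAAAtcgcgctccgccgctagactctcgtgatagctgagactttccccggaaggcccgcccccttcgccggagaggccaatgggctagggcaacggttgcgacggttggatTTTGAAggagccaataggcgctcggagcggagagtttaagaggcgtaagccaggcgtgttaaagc
ESPL1: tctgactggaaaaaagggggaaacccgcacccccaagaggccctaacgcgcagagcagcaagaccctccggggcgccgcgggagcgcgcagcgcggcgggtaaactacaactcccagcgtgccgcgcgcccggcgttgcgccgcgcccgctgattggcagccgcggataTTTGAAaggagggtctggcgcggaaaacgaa

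Sterol synthesis genes were higher in 9 of 18 cases and lower in none (median 0.52, lowest 0.26), against 8.34% higher among all genes. HMGCS1, which makes the precursor of mevalonate, gave 9.90 and 9.90 at day 7, against 8.46 and 8.43 at day 0 (1.46, SE 0.057, adjusted p = 1.96e-06), and 8.84 and 8.92 at day 14. The isomerase IDI1 gave 11.08 and 11.04, against 9.80 and 9.76 at day 0 (1.28), and DHCR7, the last enzyme of the pathway, gave 9.64 and 9.52, against 8.40 and 8.29 (1.24, SE 0.068). INSIG1 (1.13), MSMO1 (1.13) and the transporter STARD4 (1.05) rose by similar amounts. IDI1 had 1 probe set of 3 with the opposite sign. In fatty acid synthesis and desaturation 5 of 18 rose and 1 fell. The elongase ELOVL6 gave 8.24 and 8.33 at day 7, against 6.51 and 6.34 at day 0 (1.86, SE 0.073, at least 3.12-fold), the desaturase SCD gave 11.55 and 11.47, against 10.61 and 10.55 (0.93), and SREBF1, the transcription factor of this pathway, gave 7.80 and 7.77, against 6.89 and 6.76 (0.96). PNPLA3 rose by 1.09 and FADS2 by 0.90, while FADS3 fell by 0.71.

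Interferon-stimulated genes were higher in 15 of 24 cases (62.5%, against 8.34% of all genes) and lower in none, with a median of 0.76. PARP9 gave 9.44 and 9.52 at day 7, against 7.95 and 7.99 at day 0 (1.51, SE 0.070, adjusted p = 3.96e-06). SAMD9 gave 7.05 and 7.06, against 5.43 and 5.65 at day 0 (1.51, at least 1.33-fold). IFI44 gave 10.21 and 10.18, against 8.77 and 9.02 (1.30, SE 0.091), IFI35 gave 7.86 and 7.82, against 6.77 and 6.60 (1.16), GBP3 gave 8.86 and 8.82, against 7.71 and 7.74 (1.12), and PARP14 gave 8.81 and 8.85, against 7.79 and 7.67 (1.10, SE 0.063). At day 14 IFI44 stood at 9.14 and 8.99 and PARP14 at 7.9996 and 8.05, and IFI35 at 8.13 and 7.99. Of 15 MHC class I and antigen processing genes only the proteasome subunit PSMB9 passed (10.20 and 10.26 at day 7, 9.36 and 9.30 at day 0).

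Letters of the interferon-stimulated response element, GAAA and GAAA spaced by any 2 bases, stood on either strand before 11 of 14 list members that rose and have a window (78.6%), before 5 of 7 that were not called (71.4%), and before 265 of 8156 genes tested (3.25%), or 10 of 14 (71.4%), 5 of 7 (71.4%) and 183 of 8156 (2.24%) with the first start alone. PARP14, at chr3:122680639-122680838, plus strand, and IFI44, at chr1:78649589-78649788, plus strand, are shown with the matched GAAA letters in capitals. In IFI44 they are read on the other strand.
PARP14: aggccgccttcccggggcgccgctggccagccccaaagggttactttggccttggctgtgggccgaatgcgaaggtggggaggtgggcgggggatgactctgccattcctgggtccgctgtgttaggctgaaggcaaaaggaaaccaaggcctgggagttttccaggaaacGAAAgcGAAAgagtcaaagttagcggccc
IFI44: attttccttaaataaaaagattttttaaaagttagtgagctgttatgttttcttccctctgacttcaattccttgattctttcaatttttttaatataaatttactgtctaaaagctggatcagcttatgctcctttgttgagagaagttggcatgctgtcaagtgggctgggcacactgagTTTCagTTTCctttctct

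**Figure D3:**
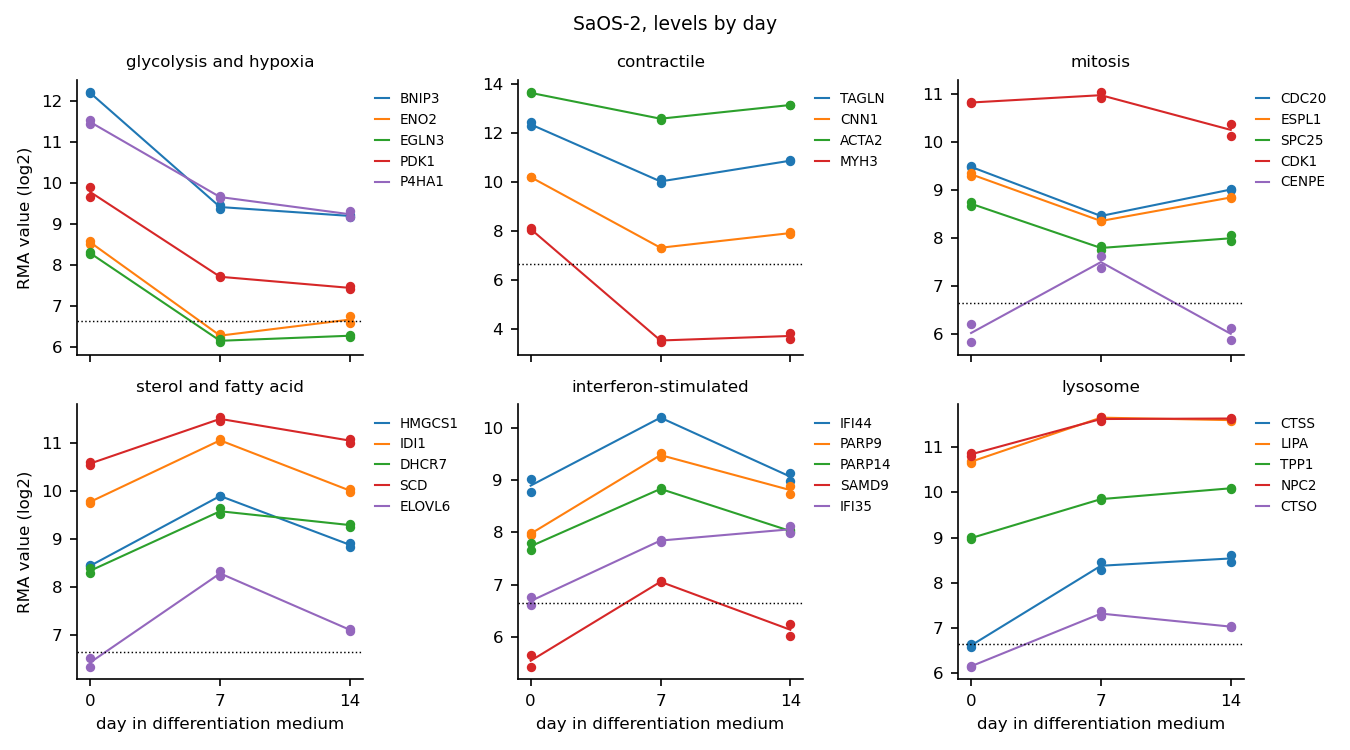
RMA values (log2, vertical axis) of members of 6 gene groups in SaOS-2 against the day in differentiation medium, 1 dot per array, lines through the means of 2 arrays, floor of 6.64 dotted. Glycolysis and contractile genes are lower at day 7 than at day 0 (BNIP3 9.46 and 9.38, against 12.21 and 12.18), and sterol, interferon-stimulated and lysosomal genes are higher (HMGCS1 9.90 and 9.90, against 8.46 and 8.43).

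Lysosomal genes were higher in 9 of 32 cases (28.1%) and lower in 1 (3.12%), against 8.34% and 7.3% of all genes (median 0.38). The cathepsin CTSS gave 8.46 and 8.29 at day 7, against 6.66 and 6.57 at day 0 (1.76, SE 0.080), the acid lipase LIPA gave 11.64 and 11.67, against 10.70 and 10.66 (0.97), and the peptidase TPP1 gave 9.82 and 9.88, against 9.01 and 8.97 (0.86). CTSO (at least 1.60-fold against the floor), ASAH1 (0.85) and NPC2 (0.78) rose too. ASAH1 had 1 probe set of 4 with the opposite sign. Genes of ER folding and the ATF4 response fell in 10 of 39 cases and rose in 3 (median -0.26). VLDLR gave 7.07 and 6.98 at day 7, against 8.91 and 8.997 at day 0 (-1.93), and the amino acid genes ASNS (8.98 and 9.02, against 10.14 and 10.13), SLC7A5 (-0.92) and PSAT1 (-0.92) fell. Of 23 heat shock and oxidative stress genes, GCLM (-1.03), NQO1 (-0.89) and TXNRD1 (-0.76) fell and MGST1 rose (1.06). These are 13% lower and 4.35% higher, against 7.3% and 8.34% of all genes. Among 7 metallothionein-related genes MT1E (-0.74) and MT1F (-0.68) fell, and MT1F lost its call when probe sets were averaged (-0.56).

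Regulators of apoptosis were divided, 15.4% higher and 30.8% lower of those tested, against 8.34% and 7.3% of all genes. PMAIP1, the BH3-only protein NOXA, gave 10.53 and 10.48 at day 7, against 8.51 and 8.55 at day 0 (1.97, SE 0.058, adjusted p = 6.74e-07), and BCL2L11, BIM, rose by 0.86 (SE 0.088). For BCL2L11, 1 probe set of 5 had the opposite sign. BNIP3L (-0.69), BID (-0.68) and BOK (-0.60) fell alongside BNIP3, 4 lower and 2 higher of 13. The BID call was lost with probe sets averaged (-0.40), that of BOK without the first day 0 array (-0.55), and BNIP3L and BOK did not pass with 12 arrays (adjusted p = 0.205 and 0.252). Of 16 p53 target genes 4 rose and none fell, PMAIP1, CDKN1A, TP53INP1 (0.76, adjusted p = 0.137 with 12 arrays) and FAS (8.32 and 8.32, against 7.63 and 7.60 at day 0). In complement, CFD (9.54 and 9.59, against 8.74 and 8.70 at day 0) and CFI (10.68 and 10.70, against 9.77 and 9.89) rose, with 3 higher of 7, the other being C1R (0.60, under the floor at day 0 and close to it at day 7, with no bound above 1). C1R fell under the threshold without the first day 7 array (0.47) or the first day 0 array (0.42), and CFI with 12 arrays (adjusted p = 0.140). Of 11 cytokine and NF-kB genes 3 fell, among them IL32 (6.49 and 6.40, against 7.50 and 7.48 at day 0, at least 1.80-fold) and LIF (-0.78, adjusted p = 0.0512 with 12 arrays).

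Among other lineages, the muscle list is described above, the cartilage list held 2 higher and 2 lower of 6 tested, and the adipocyte list 3 higher and none lower of 8. Of 20 cartilage genes 5 lay above the floor on any of the 4 arrays, and ACAN, COL2A1 and COL10A1 did not. HAPLN1, a link protein, rose to 12.97 and 12.83 at day 7, against 11.50 and 11.33 at day 0 (1.49, SE 0.082), whereas EPYC (-1.34, SE 0.060) and SOX9 (8.73 and 8.82, against 9.70 and 9.73) fell, the last 2 without passing in the fit of 12 arrays (adjusted p = 0.587 and 0.157). Of 21 adipocyte genes 8 lay above the floor on all 4 arrays, namely PPARG, CEBPB, CEBPD, ZFP36L2, DGAT1, DGAT2, FABP5 and PNPLA2. Those below it included ADIPOQ, FABP4 and PLIN1. CEBPB (12.05 and 12.05, against 11.16 and 11.17 at day 0) and ZFP36L2 (0.87) rose. The summed signal of the adipocyte genes was 10337 to 10387 at day 7, against 8867 to 9041 at day 0. That of the cartilage genes was 10847 to 11523 at day 7, against 7772 to 8122 at day 0. Bright genes such as CEBPB and HAPLN1 weigh most in such sums. The median log2 change was -0.11 over the 8 adipocyte and -0.29 over the 6 cartilage genes tested, so neither list rose as a whole. The part of other cell states in the results above was not tested. No HOX gene of 15 and no ribosomal protein gene of 9 passed. In the lists not described above, histones held 1 higher of 10, ERK feedback 2 higher and 2 lower of 11, FOXO targets 2 higher and 1 lower of 17, cadherins and junctions 2 higher of 13, epithelial-mesenchymal factors 1 higher and 1 lower of 8, AKT and PI3 kinase signalling 2 higher of 21, and axon guidance 3 higher and 3 lower of 20. Among all genes, 8.34% were higher and 7.3% lower. Over all 47 lists, 257 of 760 genes tested were called, against 15.6% of all genes, in lists that were chosen with earlier results of these data known.

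**Figure D4:**
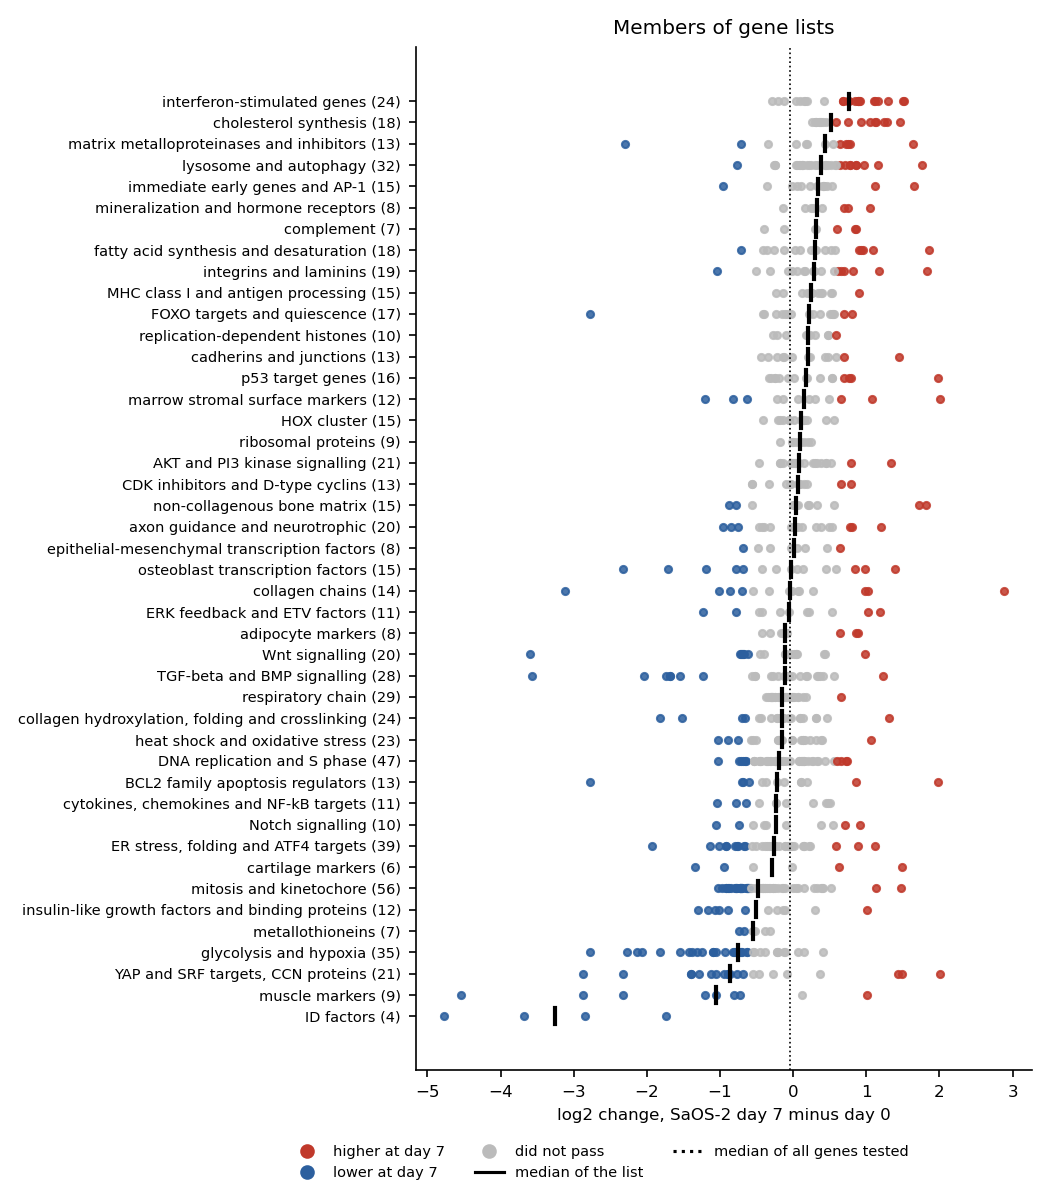
Log2 change between SaOS-2 day 7 and day 0 (day 7 minus day 0, horizontal axis) of every tested member of the gene lists with at least 4 such members, the number in brackets, coloured by the call, with a black bar at the median of each list and a dotted line at the median of all genes (-0.05). ID factors (median -3.26), muscle markers (-1.05), YAP and SRF targets (-0.87) and glycolysis and hypoxia (-0.76) have the lowest medians and interferon-stimulated genes (0.76) and cholesterol synthesis (0.52) the highest.

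The same week in the transfected clones gave a second set of arrays. CD99, the transfected surface glycoprotein, was measured by 2 probe sets. With the brighter one it gave 12.64 and 12.55 at day 7 in the arrays labelled Sa/CD99 and 12.51 and 12.53 in SaOS-2. The dimmer one gave 8.36 and 6.73 at day 7 in the arrays labelled Sa/CD99, against 11.55 and 11.88 in SaOS-2, and 6.67 and 6.73 at day 0, against 11.34 and 11.26, which goes against the label. The study also describes a real-time PCR check of CD99 in the parental cells and both clones, which was not used here. Within SaOS-2 the brighter one changed by 0.22 (SE 0.053) between days 7 and 0, under 1.5-fold.

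In the arrays labelled Sa/CD99, fitted on their own with the clone as a block, 959 of 9731 genes changed between days 7 and 0 (9.86%), 501 higher (5.15%) and 458 lower (4.71%). Of the genes higher in SaOS-2, 388 were also higher there, 47.8% of the SaOS-2 list and 77.4% of the clone list. Of those lower in SaOS-2, 375 were also lower, 52.8% of the SaOS-2 list and 81.9% of the clone list, and no gene was called in opposite directions. Across genes the changes correlated with Pearson's r = 0.899 and Spearman's rho = 0.862, a description over genes that are not independent. ID1 changed by -4.12 (SE 0.13) in the arrays labelled Sa/CD99, BNIP3 by -2.54 (SE 0.11), TAGLN by -2.16 (SE 0.32), HMGCS1 by 1.46 (SE 0.24) and IFI44 by 1.15 (SE 0.16). Of the interferon-stimulated genes 8 of 24 were higher there, against 15 in SaOS-2, and of the mitotic genes 14 of 56 were lower, against 24. The median change of the interferon-stimulated genes was 0.41 in the arrays labelled Sa/CD99, against 0.76 in SaOS-2. That of the mitotic genes was -0.51, against -0.48, so their fewer calls do not show a smaller decrease.

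Whether the first-week change differed between the lines was tested as the interaction over all 12 arrays. No probe set of 18677 was called by limma (0%), 871 had an unadjusted p under 0.05 (4.66%) and the lowest adjusted p was 0.0918. With the clone and replicate number as blocks none was called either, and the lowest adjusted p was 0.144. In that fit 1389 of the 18677 had an unadjusted p under 0.05, more than the 871 without blocks. The median SE of an interaction was 0.17 and 0.14 in these fits, against 0.067 for the change within SaOS-2, so the lines were compared with much less precision. SP7 illustrates the limit, with -0.20 (SE 0.15) in the arrays labelled Sa/CD99, against -1.19 in SaOS-2. The difference of 0.99 had an SE of 0.40 without blocks (adjusted p = 0.991) and of 0.16 with them (adjusted p = 0.360). For DLX3 the change was -0.92 (SE 0.13), against -2.33, a difference of 1.41 (SE 0.23, adjusted p = 0.376). With the blocks the SE of this difference was 0.21 (adjusted p = 0.303). IBSP changed by 3.24 (SE 0.54) there and by 1.73 in SaOS-2, while its level differed between the clones (10.67 and 6.44 at day 7, 7.37 and 3.26 at day 0 for wt22 and wt36).

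**Figure D5:**
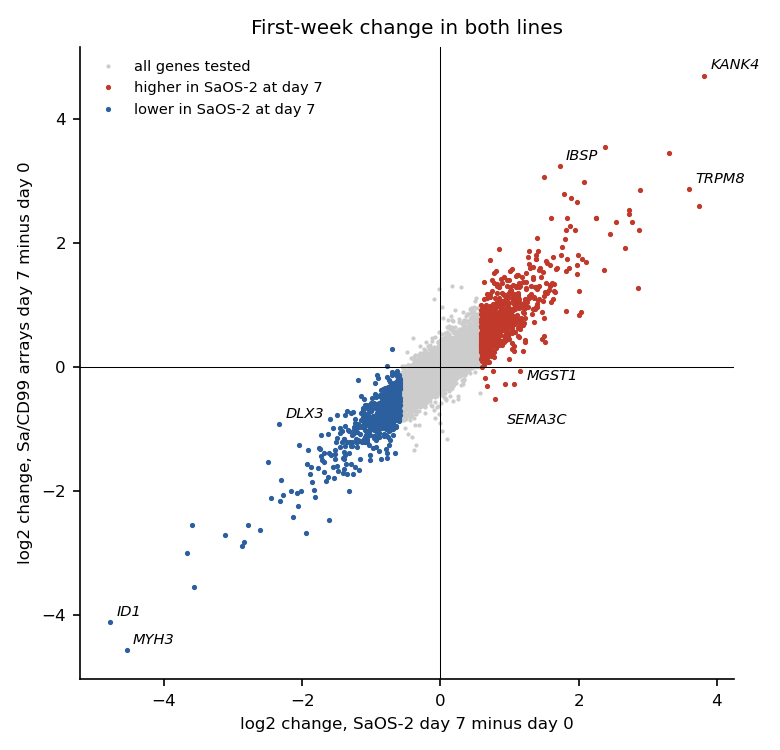
Log2 change between day 7 and day 0 (day 7 minus day 0) of every gene tested in SaOS-2 (horizontal axis) and in the arrays labelled Sa/CD99 (vertical axis, mean of 2 clones), with genes called in SaOS-2 in red (higher) and blue (lower). Points run along a rising band (Pearson's r = 0.899), with ID1 and MYH3 at one end, KANK4 at the other, and SEMA3C and MGST1 off the band, MGST1 with all its Sa/CD99 values under the floor.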

How the data were processed

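RNA of the 12 samples was hybridised to Affymetrix HG-U133 Plus 2.0 arrays. The deposited values are log2 expression levels made by the authors with RMA (background correction, quantile normalization and probe set summary), and affy and RMA stand in the submitters' processing notes, which give no version. RMA draws all arrays to 1 distribution, so changes are relative to the other genes. Scanner files and detection calls were not used here.

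Probe sets over the floor (signal 100 in at least 4 of 12 arrays, controls left out) were tested with limma 3.58.1 in R 4.3.3 on the 6 SaOS-2 arrays (3 residual degrees of freedom). Calls needed a Benjamini-Hochberg adjusted p of at most 0.05 over 18677 probe sets and a log2 change of at least 0.585 (1.5-fold). Of the probe sets tested, 16527 named 1 gene, 829 several and 1321 none, and each gene was read from its brightest probe set on average. The interaction was fitted on all 12 arrays. The clones' change was fitted on their 6 arrays with the clone as a block, as same-numbered clone arrays deviated together (r = 0.306 to 0.612). With 2 arrays a group, their number limits the precision. Fits were checked on simulated data.

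Genes named were the 12 largest changes in each direction, up to 6 called members per gene list by size of change, and a fixed set of bone, growth and sterol genes. Except for the fixed set, these were drawn from called genes whose arrays of the days do not overlap. Members and lists were chosen with earlier results of these data known. Sequences are RefSeq's (GRCh38.p14). Filters, normalizations, fits, probe set rules and left-out arrays were tried as alternatives.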

Additional observations from a re-analysis of the deposited data

Results flagged for a closer look

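MGST1, a microsomal glutathione transferase, changed by 1.06 on the log2 scale in SaOS-2 (8.43 and 8.36 at day 7, 7.38 and 7.29 at day 0). It is given because both clone differences had the opposite sign, but in the arrays labelled Sa/CD99 it lay under the floor throughout (3.95 and 3.93 at day 7, 4.06 and 4.38 at day 0), so no direction was measured there.

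SEMA3C, a secreted semaphorin, changed by 0.78 in SaOS-2 (7.47 and 7.43 at day 7, 6.52 and 6.82 at day 0). Both clones had the opposite sign. SEMA3C gave 6.53 and 7.13 at day 7 and 6.91 and 7.79 at day 0 in the arrays labelled Sa/CD99. The interaction was -1.30 (adjusted p = 0.991 by limma, 0.303 with the block), so a difference between the lines was not shown, and with 12 arrays in 1 fit its change in SaOS-2 did not pass (adjusted p = 0.0725).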

How the results depend on the processing

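The count of probe sets called between SaOS-2 day 7 and day 0 was 3067, and 5119 with no filter on low signal, where low values enter the test. It was 2726 with all 12 arrays in the fit, and 3067 to 3206 with 1 array left out. Genes called ranged from 1329 (all 12 arrays) to 1907 (no filter) around 1522, with 1522 to 1604 when 1 array was left out, and list members called from 215 to 293 around 257. The interaction gave 0 probe sets, and 1 after quantile normalization of the tested probe sets, PLXDC1 (-2.33, SE 0.185, adjusted p = 0.0086). It was a probe set other than the one that stands for the gene, and was named after its value was seen. Of 197 named genes 33 lost their call with all 12 arrays, whose clone pairs vary more, 13 with 1 array left out and 9 with probe sets averaged. The genes that changed sign were never called, SPARC (-0.0225 without SaOS-2 day 7 replicate 2, up to 0.0629 with another array left out), COL1A1 (0.0888 without SaOS-2 day 0 replicate 2, down to -0.2126 with another left out) and MKI67 (-0.0917 with probe sets averaged). No detection calls were used, so levels under the floor carry only a bound.

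Replicate numbers did not pair the SaOS-2 arrays (r of same-numbered deviations -0.033, 0.233 and -0.035). With the replicate block 3066 probe sets and 1522 genes were called.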
